A study of Mus musculus with 3 samples.

Results

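Peaks of MTR4 LACE-seq were examined in the genes of the RNA exosome, of the adaptors that join it to MTR4, and of related nuclear and cytoplasmic RNA decay factors. A peak belonged to a gene when its midpoint lay in the RefSeq gene body on the mouse build mm10. The list of 33 names came to 32 genes, because Ars2 is a synonym of Srrt, out of 21887 protein-coding genes in the table. These 32 genes held 12 of the 15769 peaks, and 9 of the 32 held at least 1, against 25.5% of all protein-coding genes. The samples were KIT-positive testis cells of Mtr4WT mice at postnatal day 8 (P8), isolated by flow cytometry, irradiated with ultraviolet C light at 400 mJ and precipitated with an antibody against MTR4. In LACE-seq the ends of reverse-transcribed fragments of the precipitated RNA mark where a protein was crosslinked. The 3 samples formed 1 group with no control precipitation or input, and no label says whether they came from separate animals or pools. All results rest on 1 peak list, recorded under replicate 3, with positions and a sign for each peak but no score or read count. The deposited name of the list contains Piranha, a peak caller, and abbreviations that read as merged and deduplicated, so it may pool the replicates; no label states this. Depth is therefore unknown, no value has a replicate check, and more RNA of a gene cannot be told apart from more contact with MTR4 or from more cells that express it.

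The exosome is a ring of structural subunits that carries nucleases and degrades RNA from its 3′ end. In the nucleus the helicase MTR4, encoded by Mtrex, unwinds substrates and threads them in. Different partners bring MTR4 to different RNAs: the NEXT complex (ZCCHC8 and RBM7) serves short unadenylated transcripts such as those that start upstream of promoters, PAXT (ZFC3H1 and PABPN1) serves polyadenylated nuclear RNA, and TRAMP (ZCCHC7 with a TENT4 poly(A) polymerase) tags aberrant RNA in the nucleolus. The question was whether RNA of these partners was itself among the RNA that precipitated with MTR4.

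All 12 peaks in the exosome and partner genes were 20 nt wide, as were 95.7% of the whole list. The markers of the sorted cells were only partly covered: 6 of 10 genes of differentiating spermatogonia held a peak, where 25.5% of all protein-coding genes did, while Stra8, Dazl, Sohlh1 and Dnmt3b held 0. Of the 21 peaks in this list 12 lay in Tex14, 11 of them inside small RNA genes nested in it, and 2 in Kit, the receptor used for the sort. Markers of other testis cells held peaks too, in 4 of 8 Sertoli cell genes (7 peaks; Cldn11, Amh, Sox9 and Rhox5 at 0), in 6 of 7 Leydig and interstitial genes (8 peaks; Star at 0) and in 2 of 6 genes of mast cells, macrophages and endothelium (1 peak each in Csf1r and Vwf; Cpa3, Cdh5, Pecam1 and Adgre1 at 0). These shares were not adjusted for gene length, and the part of these cells in the results was not tested.

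Of the 12 peaks, 4 lay just inside the 5′ end of a gene, in Dis3, Zfc3h1, Exosc8 and Srrt. The sequences at the RefSeq start sites of these genes are shown, and the distances given below the sequences are from those start sites. Elsewhere the 5′ end is the end of the RefSeq gene body, which can lie some way from the start site. Each runs 5′ to 3′ on the strand of the gene, from 250 bases before the RefSeq start site to 50 bases from the start on, and the capitals mark those last 50 bases. They come from RefSeq on GRCm38.p6, the assembly of mm10.
Dis3, minus strand, chr14:99099721-99100020: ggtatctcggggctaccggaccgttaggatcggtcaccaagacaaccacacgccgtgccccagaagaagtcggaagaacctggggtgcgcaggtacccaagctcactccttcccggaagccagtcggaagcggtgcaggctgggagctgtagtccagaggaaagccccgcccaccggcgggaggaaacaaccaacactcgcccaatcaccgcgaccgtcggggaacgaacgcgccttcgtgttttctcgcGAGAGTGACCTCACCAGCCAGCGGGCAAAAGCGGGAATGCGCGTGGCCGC
Zfc3h1, plus strand, chr10:115384709-115385008: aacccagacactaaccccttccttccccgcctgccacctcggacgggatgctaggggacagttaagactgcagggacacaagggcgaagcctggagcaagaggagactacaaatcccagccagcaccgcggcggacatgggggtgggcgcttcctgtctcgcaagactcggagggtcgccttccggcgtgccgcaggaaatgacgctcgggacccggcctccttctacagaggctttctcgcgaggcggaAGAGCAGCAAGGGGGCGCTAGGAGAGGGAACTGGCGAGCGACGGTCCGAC
Exosc8, minus strand, chr3:54735315-54735614: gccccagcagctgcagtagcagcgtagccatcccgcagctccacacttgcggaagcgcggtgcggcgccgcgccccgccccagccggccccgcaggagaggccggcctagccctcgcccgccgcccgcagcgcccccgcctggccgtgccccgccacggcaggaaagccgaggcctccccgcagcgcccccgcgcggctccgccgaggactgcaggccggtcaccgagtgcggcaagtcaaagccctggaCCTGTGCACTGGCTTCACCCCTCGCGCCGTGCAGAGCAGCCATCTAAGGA
Srrt, minus strand, chr5:137307625-137307924: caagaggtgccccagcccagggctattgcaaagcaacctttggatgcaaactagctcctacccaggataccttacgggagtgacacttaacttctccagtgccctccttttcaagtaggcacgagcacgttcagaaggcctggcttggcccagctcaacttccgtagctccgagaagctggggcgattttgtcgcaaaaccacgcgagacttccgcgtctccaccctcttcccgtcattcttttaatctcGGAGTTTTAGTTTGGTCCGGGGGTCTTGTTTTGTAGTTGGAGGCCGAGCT
All 4 windows ended short of their peak. Its midpoint lay 120 nt downstream of the start site in Dis3, 191 nt in Zfc3h1, 454 nt in Exosc8 and 904 nt in Srrt. The windows had a GC content of 64.0% in Dis3, 64.7% in Zfc3h1, 75.7% in Exosc8 and 54.0% in Srrt, against a median of 52.7% (quartiles 45.7 to 61.7) over the 32851 windows in the table. Those windows belong to 27025 genes, of which 17492 are protein-coding, so this background is not limited to protein-coding genes. Whether the other exosome and partner genes have similar windows was not tested. CpG dinucleotides numbered 30, 25, 36 and 15 in the same order of genes, against a median of 7. Both strands of the windows were searched for the TATA box letters TATAAA, for the GC box letters GGGCGG, for the CCAAT box and for the poly(A) signal AATAAA. Dis3 had 1 CCAAT box and 1 GC box, Exosc8 had 2 GC boxes, and the other two windows had no match. Over all windows the TATA box letters were found in 13.6%, the GC box letters in 35.7%, the CCAAT box in 37.4% and the poly(A) signal in 19.6%. Of the exosome and partner genes, 28 had a window in the table, in 32 windows altogether. No peak midpoint fell in any of the 32, while 2.24% of all 32851 windows held one.

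Excess peaks were tested gene by gene over the whole table. The expected number was the gene length times the higher of the peak density of the chromosome and that within 500 kb on either side, and p-values of a 1-sided exact Poisson test were adjusted with Benjamini-Hochberg over the 34614 genes tested, protein-coding or long noncoding. At an adjusted p of 0.05, 0 of the 32 genes passed, against 0.269% of all genes tested. Before adjustment, 3 of the 32 stood under 0.05 (Pabpn1, Exosc8 and Zfc3h1), against 4.08% of protein-coding genes and 3.42% of all genes tested. Expected numbers ran from 0.024 to 2.11 peaks per gene and were under 1 for 30 of the 32, so between 3 and 10 peaks were needed to pass. Together the genes held 12 peaks where 11.1 were expected, or 6.87 with the chromosome density alone. Their density was 11.3 peaks per Mb over 1.06 Mb of gene body, against 8.41 per Mb for all protein-coding genes. This difference rests on 12 peaks, was not matched for gene length and was not tested.

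**Figure D1:**
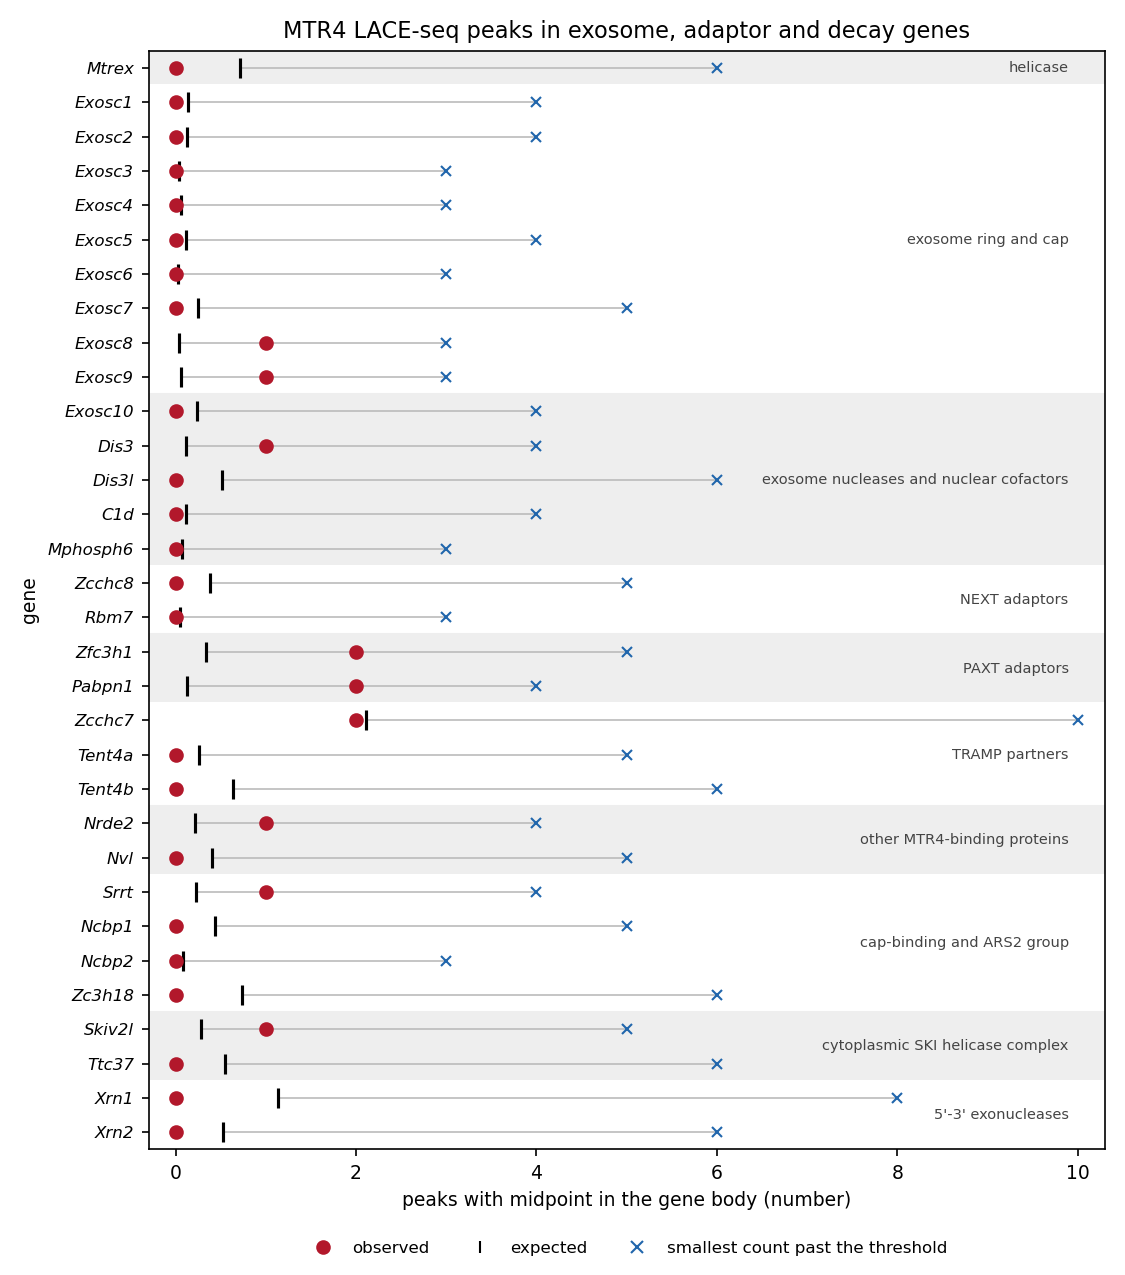
Observed peaks (red points), expected peaks (black bars) and the smallest number that would pass the test (blue crosses) for the 32 genes, in shaded bands by complex; the x axis counts peaks with their midpoint in the gene body. Observed numbers run from 0 to 2 and lie left of the cross in all 32 genes.

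A peak was found in 9 of the 32 genes (28.1%, 95% Wilson interval 15.6 to 45.4), near the background of 25.5%. At least 2 peaks were found in 3 of the 32, against 8.55%. Longer genes held a peak more often over the whole table, and the exosome and partner genes differ widely in length, with a median of 22.8 kb and a range of 1.33 to 176 kb. Among those of up to 10 kb, 2 of 8 held a peak, against 10.2% of protein-coding genes of that length. The shares were 4 of 11 against 19.8% between 10 and 30 kb, 2 of 11 against 37% between 30 and 100 kb, and 1 of 2 against 66.7% above 100 kb. The 2 shorter classes thus stood above their background and the 2 longer ones below it, each within the interval of so few genes.

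**Figure D2:**
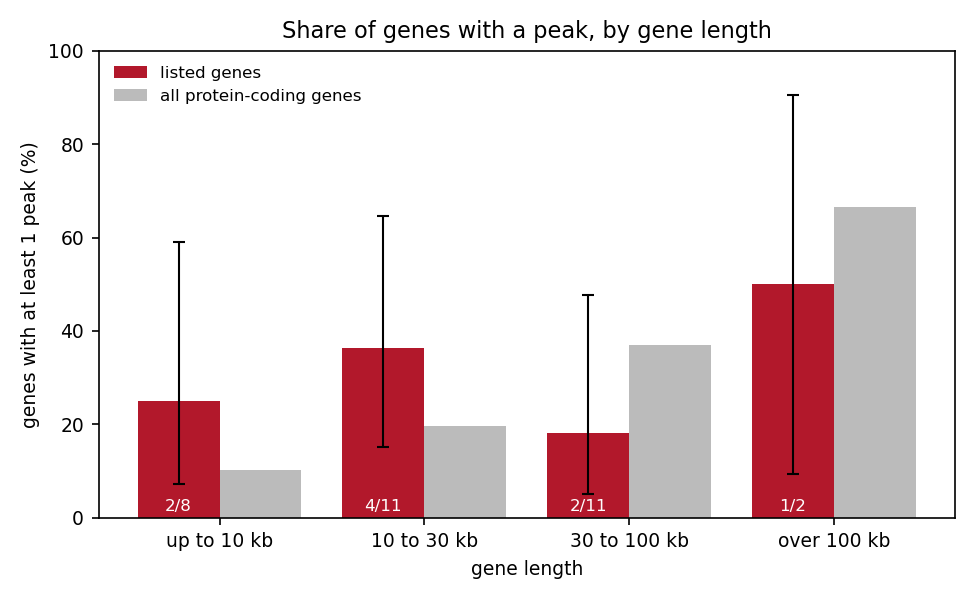
Share of genes with at least 1 peak (y axis, %) in 4 classes of gene length (x axis), for the exosome and partner genes (red, with 95% Wilson intervals and the number of genes) and all protein-coding genes (grey). The background rises from 10.2% to 66.7% with length, and each interval of the listed genes spans it.

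PAXT was the only one of the 10 groups in which every gene held a peak and more than 1 each. It has only 2 genes (interval of the share with a peak 34.2 to 100), and the groups were not compared by a test. With neighbouring peaks merged, Pabpn1 held 1 peak, so PAXT no longer had more than 1 in each gene. Pabpn1 encodes the nuclear poly(A)-binding protein of PAXT (chromosome 14, 54894143 to 54898927, plus strand, 4.79 kb). It held 2 peaks where 0.129 were expected, 15.5-fold, and did not pass (unadjusted exact Poisson p = 0.0077, adjusted p = 0.76). Both carried the minus sign and lay near the 3′ end, at 54898441 to 54898460 and 54898501 to 54898520, 477 and 417 nt before the end of the gene and 40 nt apart. In the whole list 6.96% of peaks had another within 100 nt. At least 2 peaks were found in 1.91% of protein-coding genes no longer than 10 kb. Pabpn1 lies in a stretch with 27.0 peaks per Mb, against 5.09 on chromosome 14 as a whole; with the value of the chromosome as background the excess was 82.2-fold and stood just above the threshold (adjusted exact Poisson p = 0.053). With the pair merged into 1 peak the excess was 7.74-fold (adjusted exact Poisson p = 1).

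Zfc3h1 encodes the zinc finger scaffold that ties MTR4 to PABPN1 in PAXT (chromosome 10, 115384799 to 115432772, plus strand, 48.0 kb). It held 2 peaks where 0.336 were expected, 5.96-fold (unadjusted exact Poisson p = 0.045, adjusted p = 1). Among protein-coding genes of 30 to 100 kb, 37.0% held a peak and 11.1% at least 2. The first, at 115385141 to 115385160, had the plus sign and lay 351 nt inside the annotated 5′ end. The second, at 115406541 to 115406560, had the minus sign and lay near the middle of the gene, 21.8 kb from the 5′ end. A further plus-sign peak lay outside the gene, 429 nt upstream of it at 115384361 to 115384380, inside the neighbour Thap2 on the minus strand. The start site of Zfc3h1 thus lay between a pair of plus-sign peaks separated by 760 nt.

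The 9 genes of the exosome ring and cap held 2 peaks between them, where 0.854 were expected. Exosc8, a ring subunit (chromosome 3, 54728679 to 54735364, minus strand, 6.69 kb), held 1 minus-sign peak at 54734901 to 54734920, 454 nt from the 5′ end. That was 24.9-fold over an expectation of 0.040, with an unadjusted exact Poisson p of 0.039 and an adjusted p of 1. Exosc9, another ring subunit (chromosome 3, 36552606 to 36565727, 13.1 kb), held 1 plus-sign peak at 36560641 to 36560660, 5.08 kb from its nearer end (15.6-fold over 0.064 expected, unadjusted exact Poisson p = 0.062). Its strand is not in the promoter table. The other 7 held 0: the ring subunits Exosc4, Exosc5, Exosc6 and Exosc7 and the cap subunits Exosc1, Exosc2 and Exosc3. These 7 are short, between 1.33 and 22.9 kb, and no more than 0.252 peaks were expected in any of them.

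Among the nucleases and nuclear cofactors, Dis3 alone held a peak. It encodes the processive exonuclease of the nuclear exosome (chromosome 14, 99076634 to 99099780, minus strand, 23.1 kb). Its peak at 99099641 to 99099660, with the minus sign, lay 130 nt inside the 5′ end, and the next peak on the chromosome was 267 kb away. The excess was 8.49-fold over 0.118 expected (unadjusted exact Poisson p = 0.11, adjusted p = 1). The same 20 nt also lie in Pibf1, which overlaps the start of Dis3 on the plus strand, so this peak cannot be given to either gene. It was the only one of the 12 inside another annotated gene. Exosc10, the distributive nuclease of the nuclear exosome, held 0 peaks (0.240 expected), as did its partner C1d (0.116) and Mphosph6 (0.072), which helps to dock MTR4 on the exosome. Dis3l, the cytoplasmic relative of Dis3, held 0 where 0.520 were expected.

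Mtrex (chromosome 13, 112867780 to 112927380, minus strand, 59.6 kb) held 0 peaks where 0.715 were expected, and none lay within 10 kb of it. Neither gene of NEXT held a peak. Zcchc8, the scaffold that activates MTR4, had 0.387 expected and Rbm7, its RNA-binding subunit, 0.044. One minus-sign peak lay 3.67 kb beyond the 3′ end of Zcchc8, at 123694621 to 123694640 on chromosome 5, in no annotated gene. At these expected numbers a count of 0 does not tell an unbound transcript from one too rare to give a peak.

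In the TRAMP group, Zcchc7 held 2 peaks and the poly(A) polymerase genes Tent4a and Tent4b 0. Zcchc7 encodes the zinc knuckle protein that partners MTR4 in the nucleolus (chromosome 4, 44756558 to 44932215, plus strand). At 176 kb it is the longest of the 32 genes, and its 2 peaks matched the 2.11 expected (0.949-fold, unadjusted exact Poisson p = 0.62). Both had the minus sign, at 44769321 to 44769340 and 44807341 to 44807360, 12.8 and 50.8 kb from the 5′ end and 38 kb apart. For Tent4a 0.254 peaks were expected and for Tent4b 0.641. A plus-sign peak lay 7.62 kb beyond the 3′ end of Tent4a, in no annotated gene.

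Of 2 further proteins that bind MTR4 directly, Nrde2, which holds MTR4 back from the exosome, had a peak and Nvl, a ribosome assembly ATPase, did not. The peak of Nrde2 (chromosome 12, 100125450 to 100160414, minus strand, 35.0 kb) had the minus sign and lay at 100152641 to 100152660, 7.76 kb from the 5′ end. It was 4.77-fold over 0.210 expected (unadjusted exact Poisson p = 0.19). In Nvl 0.400 peaks were expected.

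The cap-binding group links capped nuclear RNA to the exosome adaptors, and 1 of its 4 genes held a peak. Srrt encodes ARS2, the hub between the cap-binding complex and NEXT or PAXT (chromosome 5, 137295704 to 137307716, minus strand, 12.0 kb). Its peak, with the minus sign, lay at 137306761 to 137306780, 946 nt from the 5′ end. That was 4.38-fold over 0.228 expected, with an unadjusted exact Poisson p of 0.20, or 12.1-fold with the chromosome density alone. Ncbp1 and Ncbp2, the subunits of the cap-binding complex, and Zc3h18, which connects it to NEXT, held 0 peaks where 0.441, 0.079 and 0.734 were expected. A plus-sign peak lay 496 nt beyond the lower-coordinate end of Ncbp2, inside its neighbour 0610012G03Rik.

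Of the SKI complex genes and the 5′ to 3′ exonuclease genes, Skiv2l alone held a peak. Skiv2l encodes the helicase of the SKI complex, the cytoplasmic counterpart of MTR4 (chromosome 17, 34839226 to 34850204, 11.0 kb). It held 1 minus-sign peak at 34849101 to 34849120, 1.09 kb from its higher-coordinate end, 3.50-fold over 0.285 expected (unadjusted exact Poisson p = 0.25) and 11.9-fold with the density of the chromosome alone. Its strand is not in the promoter table. Ttc37, the scaffold of the SKI complex, held 0 where 0.551 were expected. The 5′ to 3′ exonuclease genes Xrn1, which acts in the cytoplasm, and Xrn2, which acts in transcription termination, held 0 where 1.13 and 0.522 were expected. A plus-sign peak lay 110 nt beyond the 3′ end of Xrn2, at 147078101 to 147078120 on chromosome 2, outside any annotated gene.

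**Figure D3:**
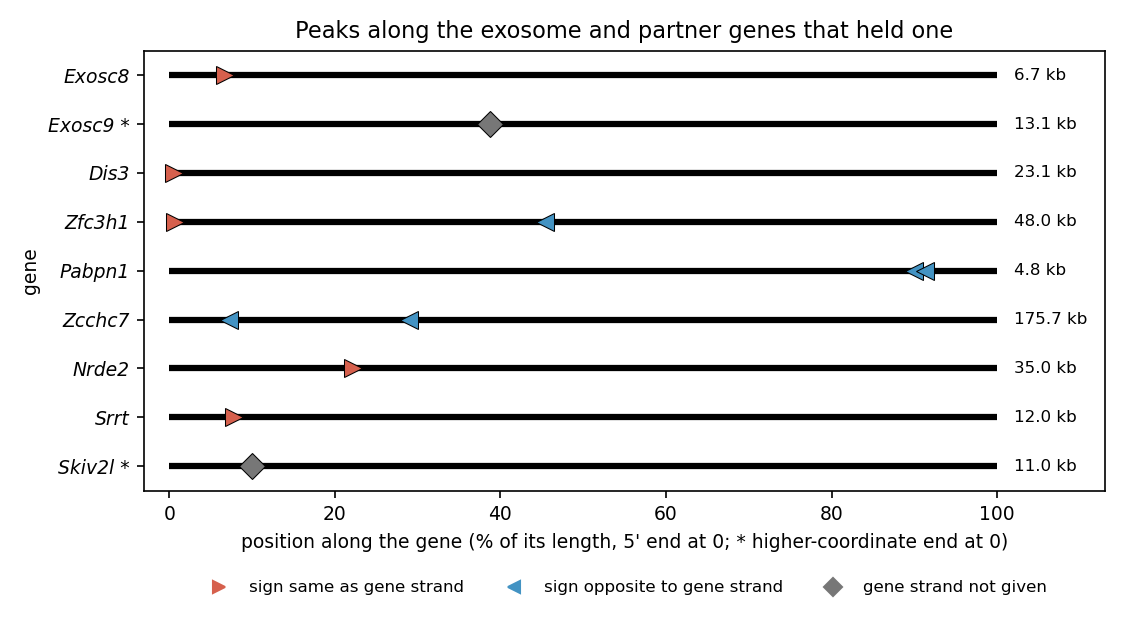
Positions of the 12 peaks along the 9 genes that held one, each gene scaled to its own length (x axis, % of gene length from the 5′ end; Exosc9 and Skiv2l, with an asterisk, from the higher-coordinate end). Right-pointing triangles have the sign of the gene strand and left-pointing ones the opposite sign; 4 right-pointing peaks lie within 1 kb of the 5′ end and the pair in Pabpn1 near the 3′ end.

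Many of the peaks lay close to an end of their gene: 6 of 12 (50.0%, interval 25.4 to 74.6) were within 1 kb of one, against 24.2% of the 8836 peaks in all protein-coding genes. With 3 kb the numbers were 7 of 12 and 37.1%. Merging neighbouring peaks joins the pair in Pabpn1, and the share of the listed genes within 1 kb was then 45.5%. Counts of peaks over all protein-coding genes, here and below, take a peak separately for each gene that holds it. The background was not matched for gene length, and the difference was not tested. The 5′ and 3′ ends could be told apart for the 28 genes with a strand, which held 10 of the 12 peaks. Within 1 kb of the 5′ end lay 4 of these 10 (40%, interval 16.8 to 68.7), in Exosc8, Dis3, Zfc3h1 and Srrt, against 20.6% of 6909 peaks in all protein-coding genes with a strand. Within 1 kb of the 3′ end lay 2 of the 10 (interval 5.67 to 51.0), against 4.63%. Both belong to the neighbouring pair in Pabpn1, which counts as 1 peak when merged. Over all such genes the opening 250 nt inside the 5′ end held 122 peaks per Mb and the 250 nt upstream of it 74.1, against 15.8 per Mb in the last 250 nt before the 3′ end. The peaks of Dis3, Zfc3h1 and Exosc8 fell in the first 500 nt, where the bins held 122 and 103 peaks per Mb over all such genes, and that of Srrt in a bin with 41.4.

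**Figure D4:**
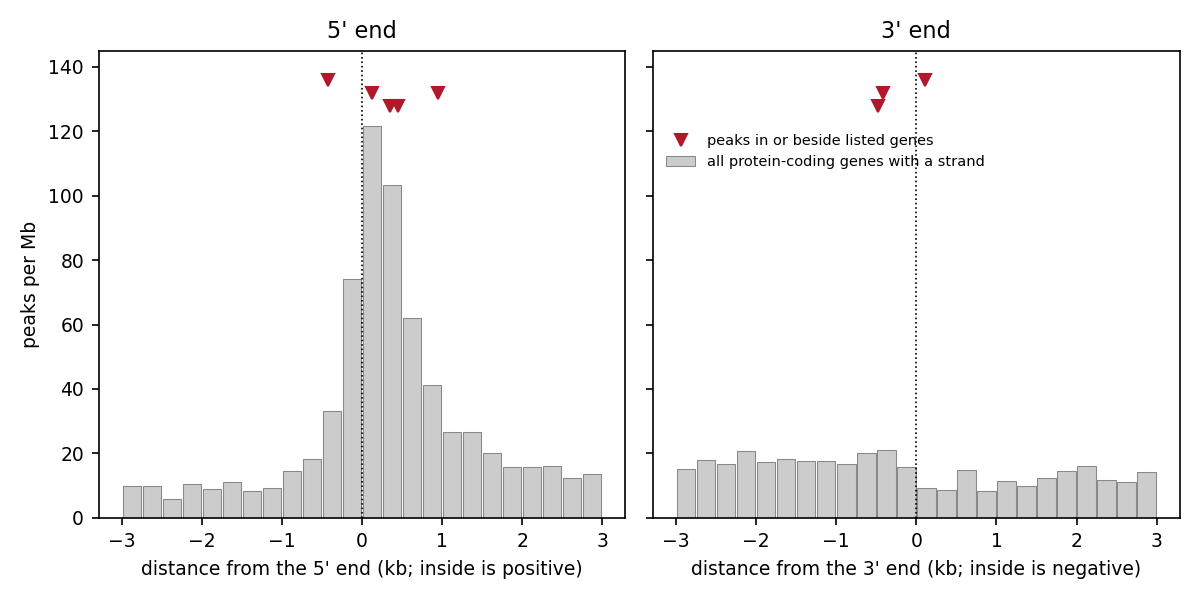
Density of peaks (y axis, peaks per Mb, in bins of 250 nt) around the 5′ ends (left) and 3′ ends (right) of all protein-coding genes with a known strand, with distance from the end in kb on the x axis. Red triangles, whose height has no meaning, mark the peaks within 3 kb of an end, in or beside the exosome and partner genes with a known strand. Peaks of Skiv2l and Ncbp2, whose strand is not known, are left out. Triangles inside a 5′ end fall between 130 and 946 nt, over grey bars of 41.4 to 122 peaks per Mb.

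The sign of the peaks divided evenly against the strand of the genes. Of the 10 peaks in genes with a strand, 5 had the sign of the gene (Exosc8, Dis3, Nrde2, Srrt and the first peak of Zfc3h1) and 5 the opposite sign (Pabpn1, Zcchc7 and the second peak of Zfc3h1). Over all protein-coding genes with a strand, the sign was that of the gene for 3276 of 6909 peaks (47.4%, interval 46.2 to 48.6). There a peak in overlapping genes on opposite strands counts both as the same and as the opposite sign. In parts of genes that no other gene overlaps it was 4 of 9 in the exosome and partner genes and 47.4% of 6138 peaks in all genes. The 4 peaks within 1 kb of a 5′ end all had the sign of the gene (interval 51.0 to 100), against 51.3% of 1424 such peaks in all genes. Among them, the minus-sign peak of Dis3 also lies in Pibf1 on the plus strand, so its sign is opposite to that gene. Neither of the peaks in Pabpn1 had the sign of the gene, against 37.5% of 320 peaks within 1 kb of a 3′ end. Minus signs made up 10 of the 12 peaks, and 61.3% of the whole list. They prevailed on both strands, in 68.2% of peaks in plus-strand genes and 62.7% in minus-strand genes. Which strand a precipitated RNA came from thus cannot be read from the sign for these genes, and the peaks at gene starts could lie in RNA of either direction.

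Beyond the gene bodies, 13 peaks lay within 10 kb of 10 of the genes, 5 of which held none inside (Zcchc8, Tent4a, Ncbp2, Zc3h18 and Xrn2), and 18 genes had no peak inside or within 10 kb. Of the 13, 10 lay in another gene. Around Skiv2l, minus-sign peaks lay in Stk19 and in Nelfe, a subunit of the factor that pauses RNA polymerase, 2.42 and 4.01 kb away, and a plus-sign peak lay 1.26 kb away in Dxo, which encodes a decapping exonuclease. The rest lay in Ccna2, the cyclin A2 gene 6.38 kb from Exosc9, in Slc22a17, 8.64 kb beyond Pabpn1, in Il17c, 4.97 kb beyond Zc3h18, in Nkx2-4, 6.75 kb beyond Xrn2, and in Gm42456, 7.59 kb beyond Srrt, besides those in Thap2 and 0610012G03Rik given above. The peak in Gm42456 was the only 1 of the 25 in or near these genes that fell inside a RefSeq start window, that of Ache, the acetylcholinesterase gene, so its own bases can be shown. They are given with 40 bases on either side, on the plus strand, with the 20 bases of the peak in capitals; its sign was minus, and its midpoint lay 144 nt upstream of the start site of Ache.
Ache, plus strand, chr5:137288061-137288160: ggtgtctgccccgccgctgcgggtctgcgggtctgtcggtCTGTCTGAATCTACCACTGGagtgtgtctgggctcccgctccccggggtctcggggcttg
None of the 12 peaks inside the genes lay in or within 1 kb of a small RNA gene, against 4.88% of the whole list. Apart from the pair in Pabpn1, the nearest other peak was 0.76 to 267 kb away.

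Among other genes of RNA decay, outside the exosome and its adaptors, 21 of 81 held a peak (25.9%, interval 17.6 to 36.4), near the 25.5% of all protein-coding genes. They held 30 peaks where 39.1 were expected, while all protein-coding genes held 8836 where 9303 were expected. The density was 7.96 per Mb, and the difference from the 11.3 per Mb of the exosome and partner genes was not tested. By the exact Poisson test 0 of the 81 passed, against 0.269% of all genes tested. Before adjustment 2 stood under 0.05, against 4.08% of protein-coding genes. By group, a peak was found in 6 of 14 Integrator genes, 5 of 15 genes of nuclear termination and surveillance, 3 of 14 deadenylase genes, 3 of 14 genes of nonsense-mediated decay, 2 of 16 decapping and LSM genes and 2 of 8 genes of cytoplasmic exosome helpers and uridylation. Rexo1, an RNA exonuclease family gene on chromosome 10 (23.9 kb), held 4 peaks where 0.573 were expected (6.98-fold, adjusted exact Poisson p = 0.42). Ddx6, the decapping helicase gene on chromosome 9 (37.7 kb), also held 4 (5.30-fold over 0.755, adjusted exact Poisson p = 0.75). Both passed when the chromosome density alone was the background, at 28.1-fold for Rexo1 and 15.8-fold for Ddx6 (adjusted exact Poisson p = 0.0059 and 0.032), a setting under which 0.529% of all genes tested passed. Upf1, the helicase of nonsense-mediated decay, held 2 peaks 133 and 593 nt inside its 5′ end. Tut4, a uridyltransferase gene, and Cnot4, which encodes a ubiquitin ligase associated with CCR4-NOT, held 2 each, and Lsm4, a gene of the LSM ring, 1. Of the peaks of Tut4, 1 lay in the nested snRNA gene Gm24967.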

How the data were processed

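LACE-seq of MTR4 was deposited for 3 samples of 1 group, with 1 peak list. Tools named in the submitters' processing notes are cutadapt 1.15 and Bowtie 1.0.0, with the build mm10; no label states how peaks were called, whether duplicates were removed or whether replicates were pooled. The deposited name of the list contains Piranha and abbreviations that read as merged and deduplicated, which could not be checked on the values. The authors deposited 4 columns (chromosome, start, end, sign) and no other measurement, and all coordinates are multiples of 20 nt; starts are printed 1-based. Peaks were joined by midpoint to the RefSeq gene table of GRCm38.p6, on either strand. Gene strand came from the RefSeq promoter table, which holds 17492 of the 21887 protein-coding genes. Exons and introns were not told apart.

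Excess peaks were tested with a 1-sided exact Poisson test over 34614 genes (Python 3.11.15, scipy 1.17.1). The test was tried on simulated peaks placed uniformly along each chromosome, with further peaks planted in some genes. Peaks of the list are clustered, so this trial cannot show how the test behaves on them. Shares have Wilson intervals at 95%, which cover only counting error. Every gene of the list is named, with the genes that hold a peak within 10 kb and the 6 of the other decay genes with the most peaks (ties by shorter gene). Of the names of other decay genes, 82 in number, 1 did not match the table and 1 matched through a synonym. The genes and lists, and the test itself, were chosen with earlier results of these data known. Alternatives were the merging of peaks, overlap in place of midpoint, small RNA genes, peak width, gene ends, background density, sign and strand.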

Additional observations from a re-analysis of the deposited data

How the results depend on the processing

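No exosome or partner gene passed the test of excess peaks under any of the 11 alternatives run for it (count 0 throughout). Where the sign was set against the gene strand, only the 28 genes with a strand were tested. Among peaks of 40 nt or wider no listed gene held a peak, so none could pass. Merging nearby peaks, counting any overlap, or leaving out peaks in or within 1 kb of small RNA genes kept 9 genes with a peak, against at most 25.6% of protein-coding genes, and 11 had one with 1 kb added on either side, where the share of protein-coding genes was 28.2%. The number of genes with a peak was 0 among peaks of 40 nt or wider, where the density was 0 per Mb, 1 of the other decay genes held a peak and 0.914% of protein-coding genes did; no position could be computed there. It was 2 among plus-sign peaks (1.88 per Mb, 10.8% of protein-coding genes) and 8 among minus-sign peaks (19.0% of protein-coding genes). For the 28 genes with a strand it was 5 with the sign of the gene and 3 with the opposite sign, each 4.88 per Mb, against 14.5% and 15.0% of protein-coding genes. It was 3 when at least 2 peaks were required. With the chromosome density alone, 2 of the other decay genes passed, Rexo1 and Ddx6, and 183 of all 34614 genes in place of 93. The fold of Zcchc7 stood above 1 with peaks merged (1.14), with the chromosome density alone (1.61) and among minus-sign or opposite-sign peaks (2.59 each). With 1 kb added, Ncbp2 stood at 10.5-fold and Xrn2 at 1.86-fold, from the peak beside each. Folds of the other named genes that held a peak turned to 0 wherever the setting removed their peaks. No paired analysis was possible because all samples are of 1 group and 1 list was analysed; for the same reason no replicate could be left out. With expected numbers mostly under 1, depth and list size limit what a count of 0 or 1 can show.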
